A study of Rattus norvegicus with 6 samples.

Results

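The 40 genes described here encode the machinery of mitosis, from the kinases that start cell division to the proteins that split the daughter cells. They were chosen by gene symbol. All 40 are among the 17771 genes of the count table, and all 40 were among the 14213 genes that passed a filter on low counts. They were measured by bulk RNA sequencing of corneas from Wistar rats that had been given corneal allografts from SD donors. Control recipients (3 libraries) received saline i.p. and resveratrol recipients (3 libraries) received resveratrol i.p., each daily after surgery. The corneas represent day 7. Every cornea in both groups carried an allograft, and no ungrafted cornea or graft between rats of 1 strain is part of these comparisons. The labels give no age, sex or dose, and they do not say whether 2 libraries could share an animal, and the p-values below therefore rest on a library-to-library spread that may be technical. The question is whether expression of mitosis genes differed between resveratrol and saline at this day.

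Mitosis genes are periodic: cells make their messenger RNA mainly in late S phase, G2 and mitosis, so in a tissue their summed level is read as a gauge of how many cells are in those phases. In the cornea, division is a normal property of basal and limbal epithelium, while keratocytes divide after wounding and leukocytes can divide when they infiltrate a graft. Transcription of these genes is held down in resting cells by the DREAM complex and driven in G2 by B-Myb, FoxM1 and the NF-Y factors, which act through 2 short promoter elements, the cell cycle genes homology region (CHR) and the CCAAT box. In bulk tissue, fewer dividing cells and less of each RNA per dividing cell cannot be told apart.

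The promoter elements are shown first because the genes are known to share them. RefSeq promoter windows of 300 bases (250 before and 50 after the annotated start, assembly GRCr8, which differs from the mRatBN7.2 build named for the counts) were matched by symbol for 34 of the 40 genes. Ccna2, Foxm1, Aurkb, Ube2c, Tpx2 and Racgap1 had no entry. All elements were searched on both strands. The CHR core was searched as TTTGAA. Its variant form TTCGAA was also searched, and since that form reads the same on both strands it was counted once per site. The CCAAT box was searched by the letters in its name. The E2F core was searched as TTTGGCG. Its variant form TTTCGCG was counted too. Overlapping matches of different elements were all kept. A CHR core was found in 25 of 34 mitosis gene windows (73.5%), against 14.9% of the 10881 tested genes with a window and 19.7% of all 33469 windows. A CCAAT box was found in 23 of 34 (67.6%), against 38.8% of tested genes and 37.5% of all windows. Both elements were found in 18 of 34 windows (52.9%), against 6.10% and 7.95%. An E2F core was found in 2 of 34 windows (5.88%), those of Cdk1 and Cdca8, against 4.23% and 2.21%. A list of 33 S phase genes, of which 27 had a window, had an E2F core in 63.0%, a CCAAT box in 63.0% and a CHR core in 25.9%. These matches describe letters in a window and were not tested as binding sites.

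**Figure D1:**
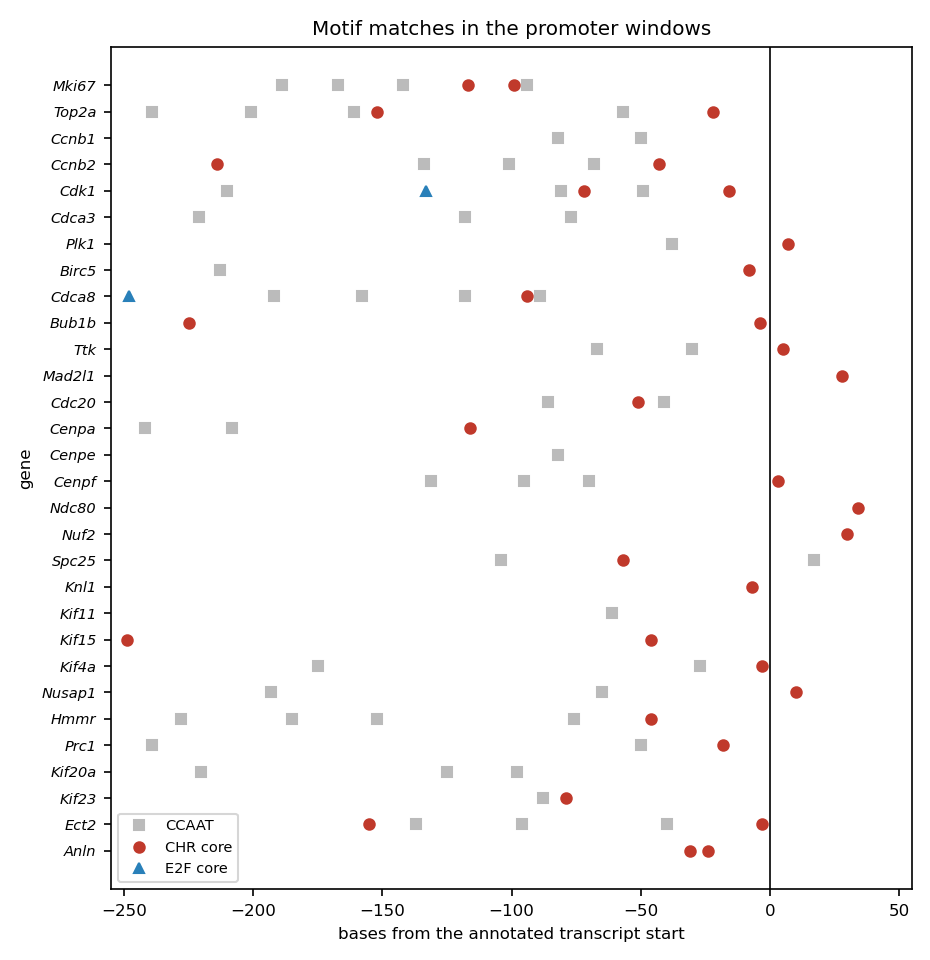
Position of each CHR core (circles), CCAAT box (squares) and E2F core (triangles) in bases from the annotated transcript start, 1 row per gene, for the 30 mitosis genes whose window holds at least 1 of them. CHR cores appear in 25 rows; Melk, Aurka, Bub1 and Kif2c have a window with none of these elements and are not drawn.

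The windows below belong to the genes with the smallest p-values for resveratrol against control among those with a CHR core (Mad2l1, Top2a and Spc25), and to Mki67 and Cdk1, which were added after their values were seen because they are the most used proliferation markers. Capitals mark CHR cores and CCAAT boxes on either strand, so that a box on the reverse strand reads ATTGG. For Top2a, Spc25, Mki67 and Cdk1 the 250 bases before the start are given, on GRCr8 at chr10:84473094-84473343 (minus strand), chr3:74396719-74396968 (minus strand), chr1:199952594-199952843 (minus strand) and chr20:19265043-19265292 (plus strand). For Mad2l1, whose core lies after the start, 30 bases are given from chr4:97236524-97236553 (plus strand).
Mki67: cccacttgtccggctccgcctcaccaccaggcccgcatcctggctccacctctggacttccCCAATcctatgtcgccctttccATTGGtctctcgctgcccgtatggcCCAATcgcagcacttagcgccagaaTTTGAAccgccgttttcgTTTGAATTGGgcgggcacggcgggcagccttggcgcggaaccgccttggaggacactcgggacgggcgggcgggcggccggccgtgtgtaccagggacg
Top2a: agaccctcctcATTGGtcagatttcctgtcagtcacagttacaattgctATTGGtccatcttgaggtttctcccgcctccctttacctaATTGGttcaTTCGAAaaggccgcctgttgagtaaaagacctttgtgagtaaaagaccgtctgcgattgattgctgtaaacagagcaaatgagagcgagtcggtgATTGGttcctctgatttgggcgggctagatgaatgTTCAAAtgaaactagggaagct
Cdk1: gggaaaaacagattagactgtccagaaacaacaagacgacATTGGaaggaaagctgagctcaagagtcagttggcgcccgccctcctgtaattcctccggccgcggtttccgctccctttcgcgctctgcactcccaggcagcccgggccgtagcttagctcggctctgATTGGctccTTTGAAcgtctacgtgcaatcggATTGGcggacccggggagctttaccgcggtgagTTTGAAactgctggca
Spc25: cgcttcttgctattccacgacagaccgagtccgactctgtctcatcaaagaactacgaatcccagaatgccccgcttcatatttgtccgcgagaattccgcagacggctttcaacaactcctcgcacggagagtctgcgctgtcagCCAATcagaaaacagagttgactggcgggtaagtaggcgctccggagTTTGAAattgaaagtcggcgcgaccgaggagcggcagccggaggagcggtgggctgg
Mad2l1: ttcgtagttactTTTGAAccgggtggcggg
The downstream CHR core of Mki67 overlaps a reversed CCAAT box by 1 base, and Top2a carries 4 reversed CCAAT boxes beside its 2 CHR cores. Cdk1 has 2 CHR cores, each downstream of a reversed CCAAT box. Spc25 has a CHR core after a CCAAT box on the forward strand.

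Resveratrol and control libraries overlapped in every one of these 40 genes, and none passed the test. edgeR's quasi-likelihood test with Benjamini-Hochberg adjustment over all tested genes called 0 of the 40 at 0.05, and 0% of all tested genes (smallest adjusted p = 0.325 for the 40 and 0.1002 for all). At an unadjusted p under 0.05 edgeR gave 0 of the 40, where 19.6% of tested genes had such a p, 7.84% higher and 11.7% lower in resveratrol. In 0 of the 40 did the 3 resveratrol libraries lie wholly above or below the 3 control libraries, where 26.5% of tested genes showed no overlap, 12.2% higher and 14.4% lower in resveratrol. DESeq2, run as an alternative, called 1007 genes (6.87% of those with an adjusted p) and 0 of the 40 (smallest adjusted p = 0.259). The mean was nevertheless higher in resveratrol for 39 of the 40, where 48.8% of tested genes had a higher mean. The median log2 fold change of the 40 was 0.31, against -0.0080 over all tested genes. Every one of the 40 limma 95% intervals held 0, and 20 reached above 1 on the log2 scale, so for those a level 2 times as high lay within the interval. In counts simulated over all 14213 tested genes from these libraries' means, sizes and dispersions, edgeR recovered 61.2% of genes changed 2-fold and 17.9% of genes changed 1.5-fold. These shares are over genes drawn from the whole table, whose median within-group SD was 0.18 on the log2 scale against 0.47 for the 40, and recovery among genes as variable as the 40 was not computed.

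What the 40 genes showed was a common order of the libraries. Control 2 was the lowest library for 38 of them and resveratrol 3 was the highest for 37, and 36 had both. Among all tested genes, control 2 was lowest in 19.8%, resveratrol 3 was highest in 16.5% and both held in 7.06%. Summed over the 40, CPM (counts scaled to library size and TMM factor) were 1313, 665 and 1028 in control 1, 2 and 3 and 975, 1103 and 1676 in resveratrol 1, 2 and 3. The top library thus held 2.52 times the level of the lowest, and the groups overlapped, with control 1 above resveratrol 1 and 2. The median deviation of a gene from its own mean log2 CPM was 0.27, -0.62 and -0.034 in the control libraries, and -0.16, 0.049 and 0.61 in those given resveratrol. The exceptions to the order, named after their values were seen, were Aurka, highest in control 1 and lowest in resveratrol 2, Kif2c, lowest in resveratrol 1, and Hmmr and Kif23, highest in control 1.

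**Figure D2:**
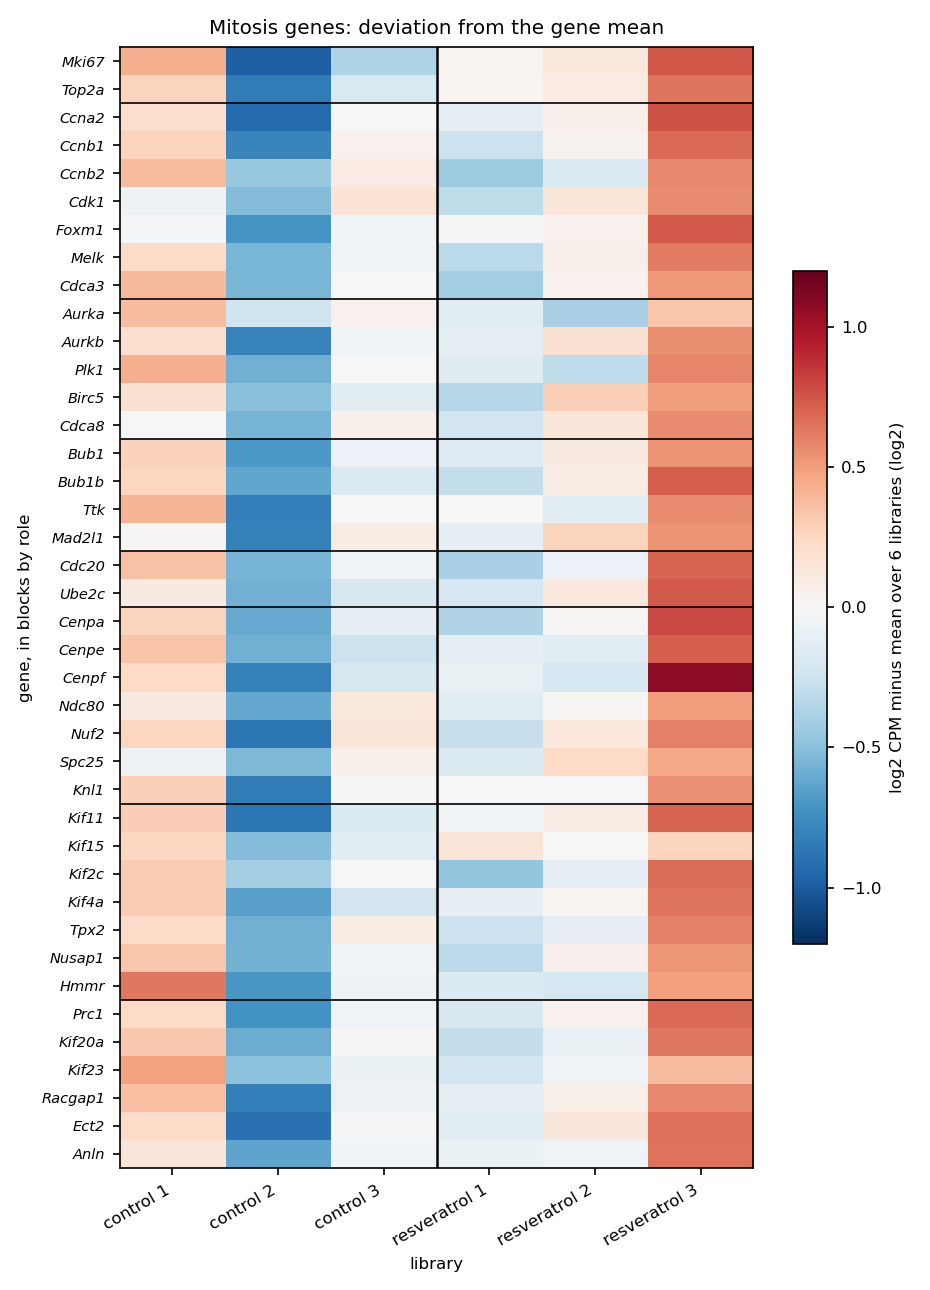
Deviation of each gene's log2 CPM from its mean over the 6 libraries (colour, log2), with genes in rows, blocked by role as in the text, and libraries in columns. The control 2 column is blue and the resveratrol 3 column red in nearly every row, while control 1 is mostly red, so the groups on either side of the vertical line do not differ as blocks.

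The spread within a group was wide. The median within-group SD of log2 CPM was 0.47 over the 40 genes, with a range of 0.29 to 0.63, against 0.18 over all tested genes, and 70.7% of tested genes had a smaller SD than the least variable of the 40. Counts per gene and library ran from 155 to 5990, so the lowest value rests on 155 reads or read pairs. The fold between the highest and the lowest library ran from 1.70 for Aurka to 3.71 for Cenpf, with a median of 2.47. Mean FPKM over all libraries ran from 2.24 for Cenpa, the histone H3 variant of centromeres, to 29.2 for Ube2c, the ubiquitin-conjugating enzyme of the anaphase-promoting complex, with a median of 7.55.

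The 2 general proliferation markers both had the higher mean in resveratrol, with a median log2 fold change of 0.49, and neither passed. Mki67 encodes Ki-67, which coats mitotic chromosomes and is the standard histological marker of cycling cells. For Mki67 the control libraries 1 to 3 gave 127, 47.8 and 73.1 CPM, and the resveratrol libraries 96.5, 103 and 158 CPM. Control 2 was the lowest library and control 1 lay above resveratrol 1 and 2. The log2 fold change was 0.52 ± 0.35 (edgeR adjusted p = 0.442), with limma's 95% interval from -0.21 to 1.42. Top2a, the topoisomerase that untangles sister chromatids, followed the same order. The CPM of Top2a was 96.6, 44.8 and 70.4 in the control libraries and 81.4, 85.7 and 125 in the resveratrol libraries. Its log2 fold change was 0.46 ± 0.28 (edgeR adjusted p = 0.401).

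**Figure D3:**
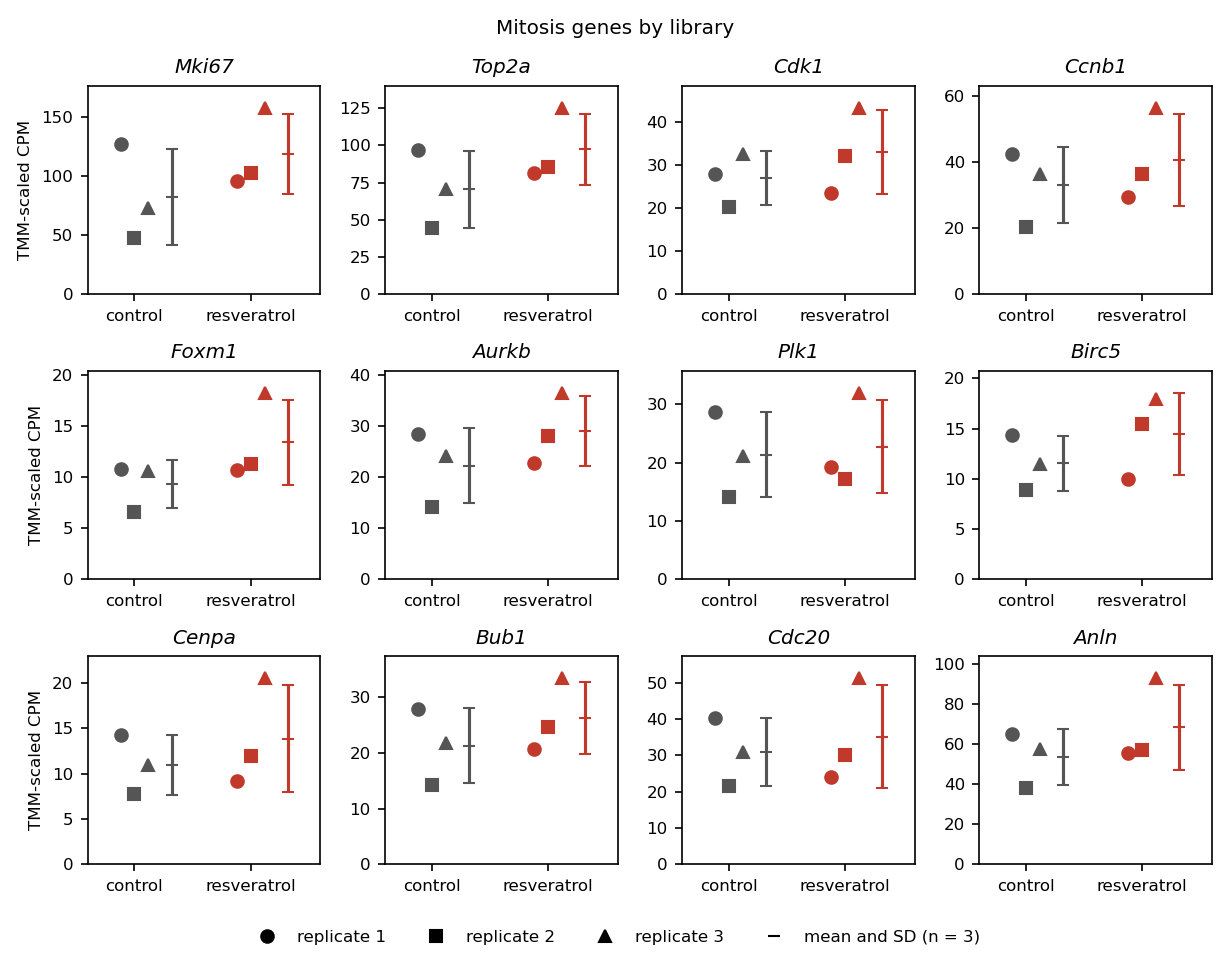
TMM-scaled CPM of 12 mitosis genes in each library, 1 panel per gene, with control in grey and resveratrol in red. Symbols give the replicate number, and the bar beside each group gives mean and SD (n = 3); each panel has its own axis from 0. In each panel control 2 is the lowest point and resveratrol 3 the highest.

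The cyclins, their kinase and entry regulators comprised 7 genes, and all 7 had higher means in resveratrol (median log2 fold change 0.29) with none passing. Cdk1, the kinase that drives entry into mitosis, had the second highest level per length of the 40 (mean FPKM 23.1). Control libraries had 28.03, 20.3 and 32.7 CPM of Cdk1, and resveratrol libraries 23.7, 32.3 and 43.3 CPM. Its libraries interleaved fully between groups, with a log2 fold change of 0.29 ± 0.25. Ccnb1, the cyclin B1 partner of Cdk1, had the same lowest and highest libraries. Ccnb1 reached 42.5, 20.4 and 36.5 CPM in control 1, 2 and 3, against 29.5, 36.4 and 56.3 CPM in resveratrol 1, 2 and 3. The log2 fold change was 0.30 ± 0.32. Ccna2, cyclin A2, acts in S phase and early mitosis. For Ccna2 the control libraries 1 to 3 gave 34.98, 15.9 and 30.5 CPM, and the resveratrol libraries 28.1, 31.6 and 51.5 CPM. Resveratrol 1 lay below control 1 and 3, and the log2 fold change was 0.45 ± 0.33. Ccnb2, cyclin B2, had nearly equal group means, with a log2 fold change of 0.014 ± 0.30. Foxm1, the transcription factor that switches on the late mitotic programme, had the smallest p-value of the 40. The CPM of Foxm1 was 10.8, 6.64 and 10.6 in the control libraries and 10.7, 11.3 and 18.2 in the resveratrol libraries. Control 1, control 3 and resveratrol 1 were nearly equal, and resveratrol 3 stood apart from the other resveratrol libraries. Its log2 fold change was 0.52 ± 0.27 (unadjusted p = 0.0901, edgeR adjusted p = 0.325). Melk, a kinase of dividing progenitors, and Cdca3, which helps degrade the mitotic inhibitor Wee1, differed by 0.26 ± 0.28 and 0.11 ± 0.29.

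Among the mitotic kinases and the chromosomal passenger complex, 4 of 5 genes had higher means in resveratrol and 1 a lower mean, with none passing. Aurkb is the kinase of the passenger complex, which corrects faulty chromosome attachments. Control libraries had 28.4, 14.2 and 24.1 CPM of Aurkb, and resveratrol libraries 22.8, 28.03 and 36.4 CPM. The log2 fold change was 0.39 ± 0.28. Birc5, or survivin, targets that complex to centromeres. Birc5 reached 14.3, 8.87 and 11.5 CPM in control 1, 2 and 3, against 9.97, 15.4 and 17.9 CPM in resveratrol 1, 2 and 3. Here resveratrol 2 and 3 were the top 2 libraries and resveratrol 1 lay among the controls, with a log2 fold change of 0.32 ± 0.26. Cdca8, or borealin, is another subunit. For Cdca8 the control libraries 1 to 3 gave 21.6, 14.6 and 22.4 CPM, and the resveratrol libraries 18.4, 23.8 and 31.9 CPM. Its log2 fold change was 0.34 ± 0.24, and resveratrol 1 lay below control 1 and 3. Plk1, the polo kinase of centrosome maturation, had almost equal means. The CPM of Plk1 was 28.7, 14.2 and 21.1 in the control libraries and 19.2, 17.1 and 31.8 in the resveratrol libraries. Its log2 fold change was 0.092 ± 0.31, and it was -0.22 without resveratrol 3 and -0.13 without control 2. Aurka, the centrosomal Aurora kinase, was the only gene of the 40 with a lower mean in resveratrol (-0.11 ± 0.23). Control libraries had 12.3, 8.03 and 9.81 CPM of Aurka, and resveratrol libraries 8.63, 7.25 and 11.98 CPM. Its range overlapped between groups, and its 1.70-fold span was the narrowest of the 40.

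The spindle checkpoint genes, whose products delay anaphase until every chromosome is attached, had higher means in 4 of 4. Bub1 is a checkpoint kinase that docks at kinetochores. Bub1 reached 27.8, 14.3 and 21.8 CPM in control 1, 2 and 3, against 20.6, 24.7 and 33.4 CPM in resveratrol 1, 2 and 3. Mad2l1 encodes Mad2, which inhibits Cdc20. For Mad2l1 the control libraries 1 to 3 gave 18.5, 10.4 and 19.4 CPM, and the resveratrol libraries 16.99, 21.99 and 26.5 CPM. Control 3 was close to control 1 for Mad2l1 and control 2 lay well below both. The log2 fold changes were 0.30 ± 0.27 for Bub1, 0.44 ± 0.27 for Mad2l1, 0.37 ± 0.30 for Bub1b, which encodes BubR1, and 0.23 ± 0.32 for Ttk, the Mps1 kinase. Cdc20 and Ube2c act next, in the ubiquitination that ends mitosis. Cdc20 activates the anaphase-promoting complex. The CPM of Cdc20 was 40.2, 21.5 and 30.8 in the control libraries and 24.1, 30.1 and 51.2 in the resveratrol libraries. Ube2c, with the highest level per length of the 40, passes ubiquitin to the targets of that complex. Control libraries had 23.1, 14.3 and 18.7 CPM of Ube2c, and resveratrol libraries 18.5, 23.2 and 35.7 CPM. Resveratrol 3 was the highest library for both, followed by control 1 for Cdc20 and by resveratrol 2 for Ube2c. The log2 fold changes were 0.19 ± 0.31 and 0.47 ± 0.26, and that of Cdc20 was -0.18 without resveratrol 3 and -0.015 without control 2.

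All 7 centromere and kinetochore genes had higher means in resveratrol, with log2 fold changes from 0.24 to 0.58 and none passing. Cenpa had the lowest level per length of the 40. Cenpa reached 14.3, 7.73 and 10.9 CPM in control 1, 2 and 3, against 9.18, 11.9 and 20.5 CPM in resveratrol 1, 2 and 3. Resveratrol 3 was the highest library and resveratrol 1 lay below control 1 and 3. The log2 fold change of Cenpa was 0.34 ± 0.33, and it was -0.045 without resveratrol 3. Ndc80 and Nuf2 form the microtubule-binding arm of the Ndc80 complex, and Spc25 belongs to the arm that anchors it in the kinetochore. For Ndc80 the control libraries 1 to 3 gave 18.3, 11.1 and 18.6 CPM, and the resveratrol libraries 15.4, 17.1 and 24.1 CPM. The CPM of Nuf2 was 15.6, 7.13 and 14.4 in the control libraries and 10.8, 14.2 and 19.9 in the resveratrol libraries. Control libraries had 5.89, 4.22 and 6.43 CPM of Spc25, and resveratrol libraries 5.49, 7.28 and 8.53 CPM. In these 3 genes control 2 was the lowest library and resveratrol 1 the next lowest. Their log2 fold changes were 0.24 ± 0.25, 0.27 ± 0.34 and 0.36 ± 0.23. Cenpf, a large kinetochore protein that accumulates in G2, had the largest log2 fold change of the 40 (0.58 ± 0.38, edgeR adjusted p = 0.4497). Cenpf reached 32.8, 15.8 and 24.4 CPM in control 1, 2 and 3, against 26.1, 23.9 and 58.6 CPM in resveratrol 1, 2 and 3. Only resveratrol 3 stood above the range of the other libraries, which included control 1 as the next highest. Cenpe, a kinetochore kinesin, and Knl1, a checkpoint scaffold, differed by 0.33 ± 0.30 and 0.31 ± 0.29.

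Spindle motors and microtubule-binding proteins had higher means in 7 of 7, with a median log2 fold change of 0.18. Kif11, the kinesin that pushes spindle poles apart, had the smallest p-value of this group. For Kif11 the control libraries 1 to 3 gave 39.9, 17.7 and 28.9 CPM, and the resveratrol libraries 31.2, 34.6 and 52.8 CPM. Its log2 fold change was 0.45 ± 0.31 (unadjusted p = 0.183, edgeR adjusted p = 0.448). Tpx2 activates Aurora A on the spindle. The CPM of Tpx2 was 42.03, 23.97 and 37.96 in the control libraries and 29.96, 33.4 and 54.4 in the resveratrol libraries. Nusap1 bundles microtubules near chromosomes. Control libraries had 28.1, 15.05 and 21.9 CPM of Nusap1, and resveratrol libraries 18.1, 23.3 and 32.3 CPM. Both had overlapping groups, with log2 fold changes of 0.18 ± 0.28 and 0.18 ± 0.27. Without resveratrol 3 these were -0.12 and -0.058, and without control 2 both were negative as well, at -0.027 and -0.026. Nuf2 also turned sign without control 2, to -0.0043. The others were Kif15 at 0.24 ± 0.20, Kif2c, which depolymerises microtubules, at 0.12 ± 0.31, Kif4a, a chromosome-bound kinesin, at 0.37 ± 0.28 and Hmmr at 0.016 ± 0.34.

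Genes of the spindle midzone and of cytokinesis had higher means in 6 of 6. Racgap1 and Kif23 together form centralspindlin, which marks the site of cleavage. Racgap1 reached 64.9, 28.7 and 47.96 CPM in control 1, 2 and 3, against 46.5, 52.97 and 75.5 CPM in resveratrol 1, 2 and 3. For Kif23 the control libraries 1 to 3 gave 71.2, 36.1 and 48.01 CPM, and the resveratrol libraries 43.3, 49.4 and 65.9 CPM. The log2 fold changes were 0.31 ± 0.30 and 0.030 ± 0.25. For Kif23 control 1 was the top library, and the sign turned without resveratrol 3 (-0.15), without control 2 (-0.17) and without control 3 (-0.019). Anln, or anillin, scaffolds the contractile ring. The CPM of Anln was 65.2, 37.9 and 57.4 in the control libraries and 55.6, 56.8 and 92.8 in the resveratrol libraries. Its log2 fold change was 0.36 ± 0.26. Ect2, which activates RhoA at the midzone, Prc1, which crosslinks midzone microtubules, and Kif20a, a midzone kinesin, differed by 0.42 ± 0.31, 0.35 ± 0.29 and 0.18 ± 0.30.

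Replicate 1 of either group carries the ending Sep in its description, and replicates 2 and 3 the ending Oct, without a word on what these stand for. Within the Sep pair, all 40 genes were lower in resveratrol 1 than in control 1, by a median of -0.43 on the log2 scale and by up to -0.80 (Ccnb2), where 50.1% of tested genes were lower. With 1 library per group this pair has no replicate check. Within the Oct libraries all 40 had higher means in resveratrol, by a median of 0.69 with a range of 0.070 (Aurka) to 1.11 (Mki67), where 47.9% of tested genes were higher. The Oct libraries include control 2 and resveratrol 3, the lowest and highest libraries for most of the 40. The remaining Oct libraries, control 3 and resveratrol 2, had median deviations of -0.034 and 0.049. The Oct differences and counts therefore largely restate the library order given above. In 25 of the 40 both Oct resveratrol libraries lay above both Oct control libraries, where 25.2% of tested genes did. In the Oct libraries alone edgeR gave 16 of the 40 at an unadjusted p under 0.05, all higher, where 16% of tested genes had such a p in either direction, and 0 passed adjustment (smallest adjusted p = 0.249). The difference between the endings was fitted as an interaction after this pattern had been seen, so its positive sign in all 40 (median 1.18 on the log2 scale) restates the pattern. The 40 genes largely shared 1 order of the libraries, so counts of them here are not counts of separate observations. Only the Oct libraries give the spread behind the p-values of this interaction, since Sep has 1 library per group. In it 15 of the 40 had an unadjusted p under 0.05 (37.5%, against 8.77% of tested genes), and 0 passed adjustment in edgeR (smallest adjusted p = 0.387). Birc5 had the smallest interaction p of the 40, at 0.0087.

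**Figure D4:**
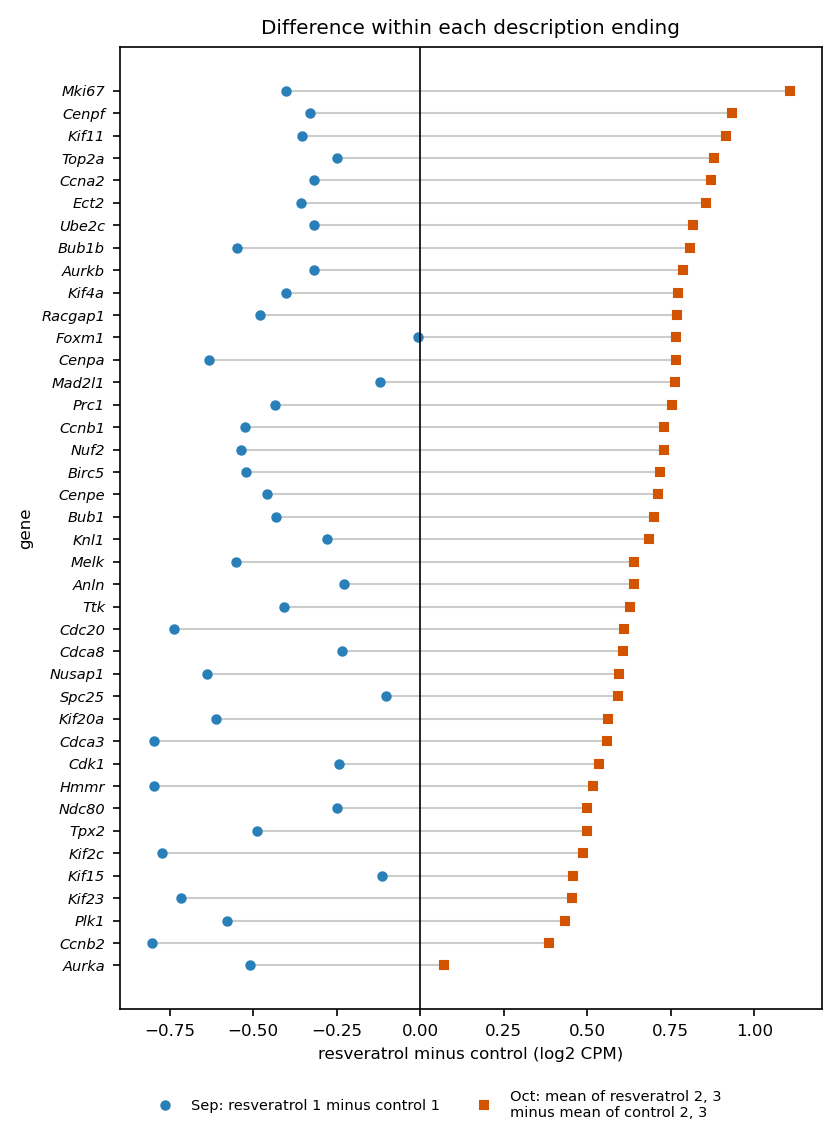
Log2 CPM difference, resveratrol minus control, of each mitosis gene within the Sep libraries (circles, 1 library per group) and within the Oct libraries (squares, means of 2 per group), with genes ordered by the Oct difference. All 40 circles lie left of 0, with Foxm1 nearest to it, and all 40 squares lie right of 0, from Aurka at 0.070 to Mki67 at 1.11.

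Leaving out single libraries moved the group difference and the sign of many genes. The median log2 fold change of the 40 was 0.060 without resveratrol 3, with 26 genes positive and 14 negative, and 0.10 without control 2, with 27 positive and 13 negative. Without control 1 it was 0.52, all 40 genes were positive and 5 had an unadjusted p under 0.05, where 17% of tested genes did. Without control 1, and likewise without resveratrol 1, 7 of the 40 had groups that did not overlap, all higher in resveratrol, where 19.3% and 18.1% of tested genes did so. None of the 40 passed adjustment in edgeR in any of the 6 fits that left out 1 library (smallest adjusted p from 0.208 to 0.627).

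Further mitosis genes were taken from a list that shares no gene with the 40. Of its 73 genes 72 were tested, with 65 higher and 7 lower means, and 0 passed adjustment (median log2 fold change 0.24). Control 2 was the lowest library for 64 of the 72 and resveratrol 3 the highest for 58, and in the Sep pair 54 were lower in resveratrol 1. Within the Oct libraries, which include control 2 and resveratrol 3, all 72 had higher means in resveratrol, where 47.9% of tested genes did. In 11 of the 72 the groups did not overlap, all higher in resveratrol, where 12.2% of tested genes did so. At an unadjusted p under 0.05 there were 6 higher genes and 0 lower, a share near the 7.84% of all tested genes that were higher. The smallest p-values were those of Ncapd3, a condensin II subunit (0.51 ± 0.12, edgeR adjusted p = 0.125), and Incenp, the scaffold of the passenger complex (0.59 ± 0.15, edgeR adjusted p = 0.127). Control libraries had 66.1, 51.8 and 63.5 CPM of Incenp, and resveratrol libraries 105, 74.5 and 93.2 CPM. The Incenp libraries did not overlap between groups, while those of its partners Aurkb, Birc5 and Cdca8 did.

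Of 33 S phase and replication genes all had higher means in resveratrol (median log2 fold change 0.33), 14 had an unadjusted p under 0.05 and 16 did not overlap between groups, all higher, where 7.84% and 12.2% of all tested genes did so in that direction. None passed adjustment in edgeR, and 3 did in DESeq2, which called 6.87% of all genes with an adjusted p. Their median within-group SD was 0.20, against 0.47 for the 40 mitosis genes. The count of 14 was 3 of 33 without resveratrol 3 and 4 of 33 without control 2. In those fits 16.4% and 12.6% of all tested genes had an unadjusted p under 0.05 in either direction. The smallest p-values were those of Mcm5, a subunit of the replicative helicase (0.51 ± 0.14, edgeR adjusted p = 0.134), and Cdt1, which loads that helicase (0.43 ± 0.12, edgeR adjusted p = 0.139). In the Sep pair the S phase genes had a median difference of 0.17, with 5 of 33 lower in resveratrol 1, so that the mitosis and S phase lists lay on opposite sides of 0 there. In control 1 the median deviation was -0.11 for the S phase genes and 0.27 for the 40 mitosis genes.

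Among 8 G1 cyclins and kinases, 6 had higher and 2 lower means, where 48.8% of tested genes had a higher mean. In 1 of the 8 the groups did not overlap, where 12.2% of tested genes lay wholly higher in resveratrol. Ccnd1, cyclin D1, which carries growth signals into the cycle, did not overlap between groups (0.38 ± 0.11, edgeR adjusted p = 0.161). Ccnd1 reached 146, 160.1 and 172 CPM in control 1, 2 and 3, against 189.7, 239 and 193 CPM in resveratrol 1, 2 and 3. Cdk2 differed by 0.21 ± 0.15. Of 8 CDK inhibitors, 6 had lower and 2 higher means, beside the same 48.8% of tested genes with a higher mean. In 1 of these 8 the groups did not overlap, where 14.4% of tested genes lay wholly lower in resveratrol. Cdkn1c, which encodes the p57 inhibitor, was lower in all resveratrol libraries than in any control library (-0.74 ± 0.17, edgeR adjusted p = 0.121). For Cdkn1c the control libraries 1 to 3 gave 14.2, 12.7 and 11.6 CPM, and the resveratrol libraries 7.35, 9.23 and 6.504 CPM. Cdkn2d, the p19 inhibitor of Cdk4 and Cdk6, differed by 0.44 ± 0.25. Of 15 genes of the DREAM and MuvB complexes and NF-Y, which act on CHR elements and CCAAT boxes, 13 had higher means and 5 did not overlap between groups, all higher, where 48.8% and 12.2% of all tested genes did so. E2f4, the repressive E2F of the DREAM complex, had the smallest p-value of that list (0.48 ± 0.078, edgeR adjusted p = 0.1002). The CPM of E2f4 was 52.2, 51.2 and 56.9 in the control libraries and 76.6, 70.8 and 76.3 in the resveratrol libraries. Tfdp1, its dimer partner, differed by 0.39 ± 0.088 (edgeR adjusted p = 0.121). Mybl2, which encodes B-Myb, was named after its values were seen. It overlapped between groups (0.52 ± 0.28) and shared the lowest and highest libraries of most mitosis genes, control 2 and resveratrol 3. Control libraries had 25.1, 11.97 and 19.8 CPM of Mybl2, and resveratrol libraries 23.3, 23.7 and 34.3 CPM. None of these genes passed the adjusted threshold.

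**Figure D5:**
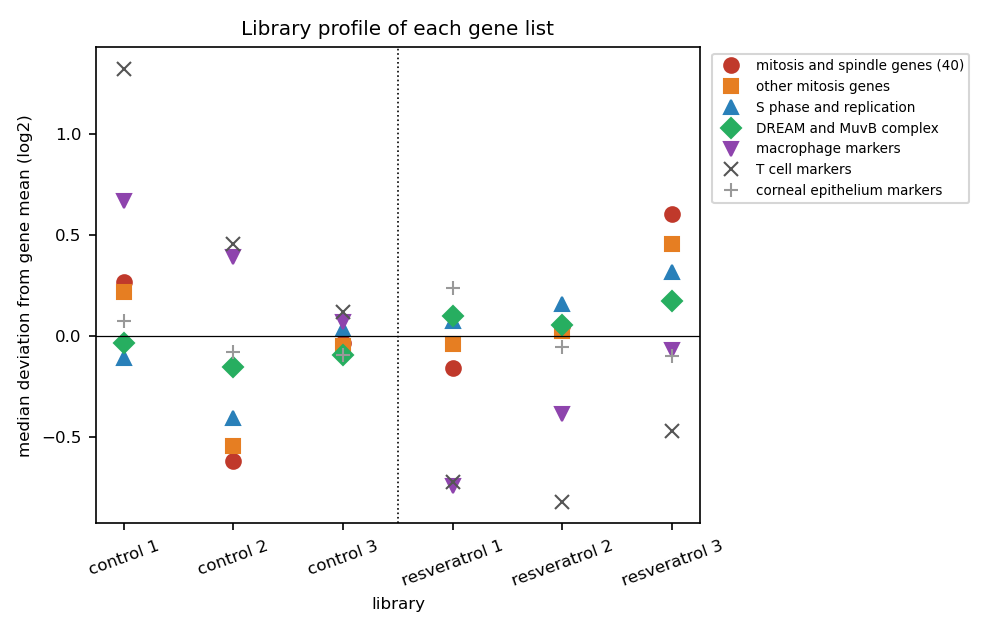
Median deviation of each gene list from its gene means (log2 CPM) in each library, with the dotted line between control and resveratrol. The 40 mitosis genes run from -0.62 in control 2 to 0.61 in resveratrol 3; other mitosis genes have the same lowest and highest libraries, whereas macrophage and T cell markers are above 0 in every control library and below 0 in every resveratrol library.

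Markers of the cells that these corneas could hold were set beside the mitosis genes by library. Krt12, the corneal epithelial keratin, was at 31838 to 37566 CPM, and 6 of 6 corneal epithelial markers were tested, so the labelled tissue was present in each library. Their median deviations were 0.074, -0.078 and -0.093 in the control libraries, and 0.24, -0.052 and -0.098 in those given resveratrol, so that resveratrol 1 was highest and resveratrol 3 lowest. Summed CPM of these markers ran from 70602 in resveratrol 3 to 86533 in resveratrol 1. The 5 tested basal and limbal markers summed to 17072 to 20719 CPM in control and 17552 to 19870 in resveratrol, a sum made up mostly of Krt14. It was lowest in control 2, but only 1 of the 5 was lowest there, and their median deviation was lowest in control 3 (-0.20, against -0.11 in control 2). Trp63 was not found under that symbol. Macrophage markers (10 of 10 tested) summed to 320.5 to 469 and 209 to 307 CPM, and T cell markers (7 of 9 tested) to 30.3 to 60.5 and 17.1 to 28.0 CPM. At an unadjusted p under 0.05, edgeR gave 8 of 10 macrophage, 6 of 7 T cell, 5 of 6 vessel, 4 of 6 matrix, 2 of 4 neutrophil and 1 of 5 corneal endothelial markers as lower in resveratrol, where 11.7% of all tested genes were, and none of them passed adjustment. The macrophage, T cell and vessel sums were highest in control 1, the control library with the highest summed mitosis level. Among controls these sums were lowest in control 3, whereas the mitosis genes were lowest in control 2. Within resveratrol each of these sums was highest in resveratrol 3, as was the summed mitosis level. The T cell sum was made up mostly of Cd4, at 13.1, 17.9 and 20.1 CPM in resveratrol 1, 2 and 3. Within that group Cd3g, Cd2 and Lck were not highest in resveratrol 3. Cd4 ranked the 6 libraries in the same order as the macrophage sum did, so the T cell sum adds little that is separate from it. The matrix sum had the same highest and lowest control libraries, but among resveratrol libraries it was highest in resveratrol 1. Cd3e, part of CD3, ran from 0.804 to 2.73 CPM in the control libraries and reached at most 0.685 CPM with resveratrol. B and plasma cell markers were near 0, with 1 of 6 tested and Cd79a, Cd79b and Ms4a1 at 17, 12 and 1 counts over all libraries. Keratocyte markers (5 of 6 tested) summed to 3299 CPM in resveratrol 3, their lowest library, and 5163 CPM in control 2, their highest. Their median deviation was also lowest in resveratrol 3 (-0.57), but highest in resveratrol 2 (0.31), with control 2 at 0.23. Corneal endothelial markers summed to 818 to 992 and 835 to 1407 CPM, neutrophil markers (4 of 6 tested) to 225 to 593 and 168 to 207, vessel markers to 408 to 557 and 271 to 342, and matrix markers to 10365 to 16675 and 6011 to 9554 CPM. The part of these cell types in the library order of the mitosis genes was not tested. Total counts were 35068936 to 37460756 per library with TMM factors of 0.982 to 1.03, and the 40 genes took 0.0661% to 0.172% of them.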

How the data were processed

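Bulk corneal RNA was sequenced in 6 libraries as 150 bp paired-end reads, per the labels' protocols. The authors deposited unnormalized counts of 17771 genes as whole numbers. The same table, per the file headers, has a counterpart in FPKM. The single-library FPKM files held exactly the values of the deposited FPKM table in 6 of 6, with no tolerance. The submitters' processing notes name mRatBN7.2, R 3.2.0 and DESeq2 without roles; the aligner, counter, annotation and strand setting are not known here. A separator is missing in the count header, so columns were assigned by name and checked against FPKM: across genes, log2(count/FPKM) minus that of control 1 varied with an SD of 3.54e-10 or less when names matched, and of 0.271 or more when they did not. All pairs of libraries differed beyond counting noise (chi-square per degree of freedom 32.7 to 96.5).

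Counts were filtered with filterByExpr, scaled with TMM and tested with edgeR 4.0.16 (quasi-likelihood, R 4.3.3), with Benjamini-Hochberg adjustment over 14213 genes and a threshold of 0.05. The errors after ± are standard errors from limma-trend (limma 3.58.1, log2 CPM, prior count 2), as are the 95% intervals, so an interval can be centred slightly off edgeR's fold change. With 3 against 3 libraries an exact permutation test cannot go below 0.1, so none was made. The test was tried on simulated data with 14213 genes; 6 of its 119 calls were unchanged genes. The members and lists were chosen with earlier results of these data known. Genes given in full were, per role, the 2 with the highest mean FPKM and the 1 with the smallest p-value, plus Mki67, Top2a, Cdk1, Ccnb1, Aurkb, Plk1, Birc5, Cenpa and Foxm1; Aurka and Cenpf were added after their values were seen. From each pathway list the 2 genes with the smallest p-value were named. Alternatives were other scaling, filters, DESeq2 1.42.0, limma voom, log2(FPKM + 1) and log2(FPKM + 0.1) in limma, the ending or the replicate number as a term, Oct libraries by themselves, and each library left out in turn. The interaction and the alternatives for S phase genes were chosen after seeing the data.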

Additional observations from a re-analysis of the deposited data

How the results depend on the processing

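Of the 40 mitosis genes 0 passed adjustment in edgeR under every alternative fit, and in DESeq2, limma voom and limma on FPKM. Over all genes DESeq2 called 1007 and edgeR 0 to 21 when 1 library was left out (21 without control 3, 1 without resveratrol 2); the cause was not tested. The number of the 40 with an unadjusted p under 0.05 was 0, but 1 with the replicate block, 16 in the Oct libraries alone, 15 for the interaction with the ending, and 0 to 5 with 1 library left out. The number without overlap between groups was 0, but 1 with DESeq2 size factors, 25 in the Oct libraries alone, and 0 to 7 with 1 library left out. The median log2 fold change of the 40 was 0.31 in the main fit. It was 0.060 to 0.52 with 1 library left out and 0.66 in the Oct libraries alone. The SD of single library medians within groups was 0.424. Leaving out 1 library can hardly move the median by that much, so a smaller shift does not show that the median was stable. With 1 library left out, 3 to 19 of the 33 S phase genes had an unadjusted p under 0.05, all higher in resveratrol. In those fits 12.6% to 18.6% of all tested genes had such a p in either direction. The count without overlap was then 16 to 29, all higher in resveratrol. In those fits 14.8% to 19.3% of all tested genes lay wholly higher, and 32% to 39.1% showed no overlap in either direction. In the Oct libraries alone the count was 29, where those shares were 25.2% and 52.2%. With 1 library left out the log2 fold changes ran from -0.22 to 0.37 for Plk1, from -0.18 to 0.43 for Cdc20, from -0.0043 to 0.48 for Nuf2, from -0.12 to 0.35 for Tpx2, from -0.058 to 0.41 for Nusap1, from -0.17 to 0.33 for Kif23 and from -0.045 to 0.58 for Cenpa. Among the genes named by the rule, no other sign turned under the alternatives run. The replicate numbers did not pair the libraries: deviations from the group means correlated at -0.0044, -0.012 and -0.023 for replicates 1, 2 and 3, and no library is known to share an animal or day with its number. The block moved no other count here by over 1.5 times. Where a fit left 2 libraries in a group, their spread was pooled with the other group. The labels do not say what the endings mean, and 1 Sep library per group gives no spread of its own.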
